A study of Mus musculus with 11 samples.

Results

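The SR and hnRNP genes encode the 2 large families of RNA-binding proteins that choose splice sites. They were taken as the protein-coding genes of the mouse GENCODE annotation whose symbol begins with Srsf or Hnrnp, together with Tra2a, Tra2b and Srrm1 to Srrm4. A gene also needed at least 10 counts in at least 5 of the 11 libraries. All 37 genes that matched by symbol met this minimum, out of 48709 gene identifiers in the files, and all 37 were among the 17293 genes tested. The lowest count of any of them in a single library was 25, for Hnrnpf. They fall into 8 classical SR genes, 9 SR-related genes, 7 genes of the hnRNP A/B and D families, 4 of the hnRNP F/H family and 9 other hnRNP genes.

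Polyadenylated RNA of the hippocampal CA1 field, a region needed for forming memories, was sequenced at 3 months of age in 6 libraries from CamkdeltaC transgenic mice and in 5 from their littermate controls. The CamkdeltaC transgene encodes an isoform of CaM kinase II delta under a heart muscle promoter, and the line is a model of heart failure. The series title sets heart failure beside impaired memory. Males and females were both used, without a sex, litter or batch for any library, and whether each library is a separate animal is not stated, so p-values measure the spread between these libraries only.

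Transgenic libraries held 24403918 to 34153726 counts and control libraries 14263784 to 36898689. Camk2d, the gene carried by the transgene, had a log2 fold change of -0.08 in CA1 (SE 0.29, edgeR adjusted p = 0.873). Markers of CA1 pyramidal cells were present in every library, at a summed 1079 to 1348 CPM (counts scaled to library size) in transgenic libraries and 901 to 1122 CPM in controls, and 0 of the 5 passed the test. Of the other cell type markers, 1 of 5 astrocyte genes (Aldh1l1, log2 fold change 0.24) and 2 of 5 microglial genes (Trem2, 0.45, and Csf1r, 0.25) were called higher in transgenic libraries. No marker list was at 0, and the part of cell makeup in the results was not tested. In dissected tissue, fewer cells of a type and less RNA per cell cannot be told apart.

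SR proteins bind exons through RNA recognition motifs and, through a tail rich in arginine and serine (the RS domain), recruit the spliceosome to nearby splice sites. Most hnRNP proteins bind silencer elements in exons and introns and often oppose SR proteins at the same exon, and members of both families also act in export, stability and translation of mRNA. Many of these genes hold down their own output by splicing in a poison exon, whose premature stop codon sends the transcript to nonsense-mediated decay. In neurons they set the exons of ion channels, receptors and adhesion molecules, and Srrm3 and Srrm4 include the very short neuronal microexons.

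Arginine- and serine-rich coding stretches of 5 members are printed because they run from AT-rich to GC-rich arginine codons. They are not all alike as protein. Of the 21 arginine or serine codons in the Srrm3 stretch 18 are arginine, against 16 of 28 for Srsf2. Each stretch is the 90-base, in-frame part of the coding sequence, within a single exon, with the most arginine and serine codons. It is read from the mm10 genome 5′ to 3′ on the strand of the gene, with every arginine codon in capitals. Srsf7 is from chr17:80204142-80204231 on the minus strand, Srsf10 from chr4:135863075-135863164 on the plus strand, Srsf11 from chr3:158016363-158016452 on the minus strand, Srsf2 from chr11:116852238-116852327 on the minus strand and Srrm3 from chr5:135868296-135868385 on the plus strand.
Srsf7: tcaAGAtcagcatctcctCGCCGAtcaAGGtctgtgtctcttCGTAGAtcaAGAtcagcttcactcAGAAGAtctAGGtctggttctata
Srsf10: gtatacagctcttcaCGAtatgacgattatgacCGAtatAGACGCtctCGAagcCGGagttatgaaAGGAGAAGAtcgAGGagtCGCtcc
Srsf11: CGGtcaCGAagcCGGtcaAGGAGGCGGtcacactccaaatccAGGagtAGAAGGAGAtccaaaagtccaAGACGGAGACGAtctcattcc
Srsf2: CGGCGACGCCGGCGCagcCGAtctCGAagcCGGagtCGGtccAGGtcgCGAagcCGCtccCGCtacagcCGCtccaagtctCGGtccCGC
Srrm3: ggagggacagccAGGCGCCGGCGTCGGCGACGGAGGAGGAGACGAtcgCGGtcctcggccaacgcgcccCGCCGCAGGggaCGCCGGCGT

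The Srsf7 stretch was 45.6% G and C and that of Srsf10 47.8%, while the Srsf11 stretch reached 54.4%, that of Srsf2 73.3% and that of Srrm3 78.9%. Over the whole coding sequence, the A-rich codon AGA supplied 34.5% of arginines in Srsf7, 31.4% in Srsf10 and 35.3% in Srsf11, against 9.43% in Srsf2 and 6.54% in Srrm3. Srsf2 and Srrm3 used CGC for 37.7% and 32.7% of arginines instead. The relation of codon use to fold change was not tested, and codon use alone did not separate the called members from the others. With 6.54% to 13.3% of arginines from AGA, Srrm3, Srrm4, Srsf4 and Srsf9 were not called and Srsf2 was called lower. Srrm2, with AGA for 33.3% of arginines, Srrm1 with 32.0% and Srsf5 with 27.3% were not called. Srsf1 and Srsf12, with coding sequences of 58.2% and 60.3% GC, were called lower. So was Srsf3, whose stretch chosen the same way was 62.2% GC but held only 14 arginine or serine codons of 30. The relation with base composition described below is for the GC content of whole transcripts.

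Transcripts of 17 of the 37 genes were lower in transgenic CA1 and 0 were higher, by edgeR's quasi-likelihood test with adjustment over all genes (adjusted p under 0.05). The 17 are 45.9% of the members, where 10.5% of all tested genes were called lower and 7.41% higher. No member with a positive fold change reached an unadjusted p under 0.05, and DESeq2 and limma also called 0 members higher. Fold changes were negative in 30 of 37 members, with a median log2 fold change of -0.19 against 0.01 over all tested genes, and ran between -0.53 for Srsf10 and 0.16 for Hnrnpf. The falls were modest in size. For 7 members, Srsf1, Srsf6, Srsf11, Srsf12, Hnrnpa1, Hnrnpll and Hnrnpu, every transgenic library lay below every control library, and 0 members were separated the other way. Over all tested genes, 4.73% were separated with the transgenic libraries lower and 3.04% with them higher. Together the 37 genes took 0.513% to 0.601% of the counts of a transgenic library and 0.606% to 0.634% of a control library, ranges that do not overlap.

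These calls depended on base composition. When each library's trend of expression on the GC content of transcripts was removed, 2 members remained called lower (Srsf11 and Srsf12) and 1 became called higher (Srsf5), with a median log2 fold change of -0.07. With the trend removed, the transgenic libraries lay wholly below the controls for 3 members, Srsf11, Srsf12 and Hnrnpa1. The groups of Srsf1, Srsf6, Hnrnpll and Hnrnpu then overlapped, and the share of all tested genes so separated is not given here. The same removal left 0.821% of all tested genes called lower and 1.16% called higher. This trend was itself tied to genotype, being higher in every transgenic library than in every control. How much of the fall belongs to the libraries' base composition and how much to these genes was not tested, and each family below is given on both scales.

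**Figure D1:**
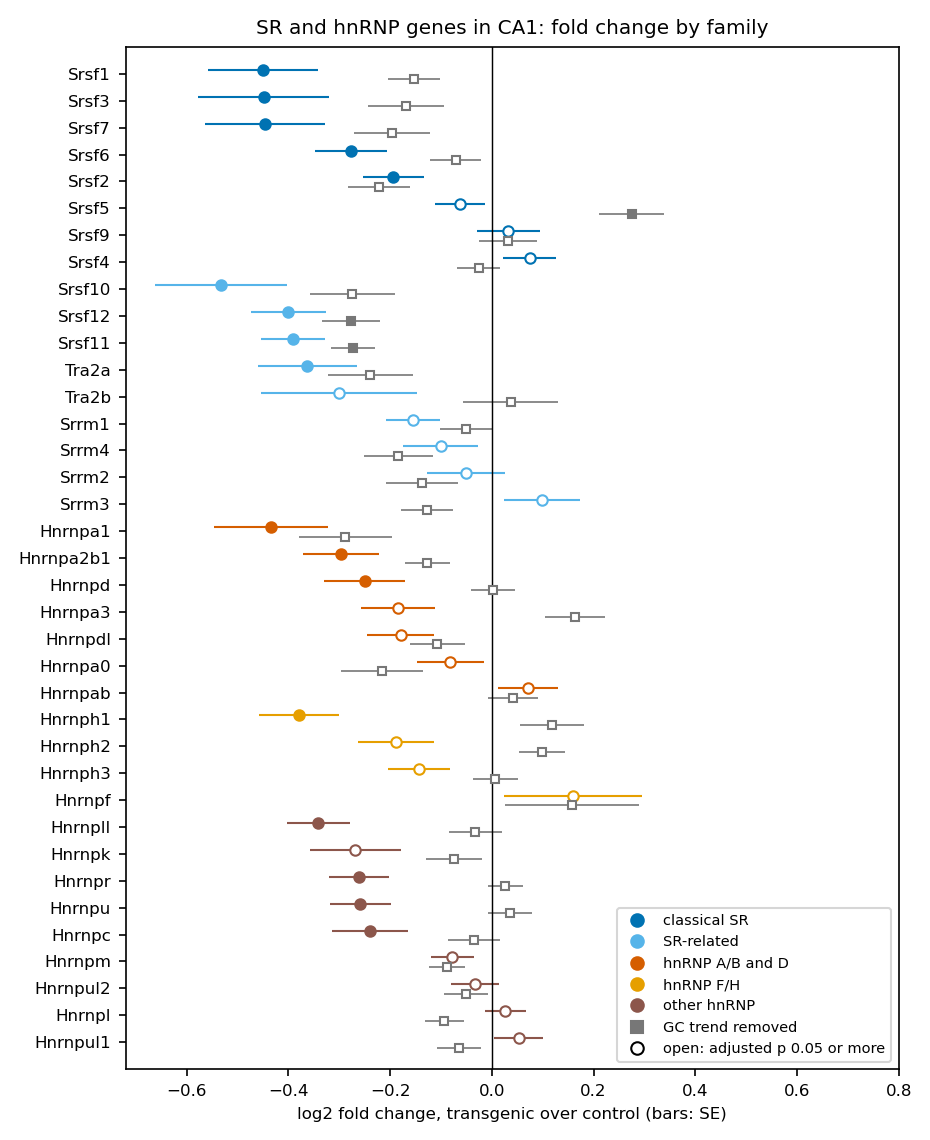
Log2 fold change of each of the 37 genes, transgenic over control, with its SE as a bar. Coloured circles use the counts as deposited and grey squares the counts with each library's GC trend removed, and filled symbols passed an adjusted p under 0.05. Filled circles lie only left of 0, and the filled squares are Srsf11, Srsf12 and Srsf5.

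Classical SR genes showed 5 of 8 members lower (Srsf1, Srsf2, Srsf3, Srsf6 and Srsf7) and 0 higher, with a median log2 fold change of -0.23. Over all tested genes 10.5% were called lower and 7.41% higher. Of those with a transcript GC content below the median, 20.5% were called lower. The counts of the other families below stand beside the same shares. Srsf1, the founding member, which binds exonic enhancers and also acts in mRNA export and decay (ENSMUSG00000018379, chromosome 11, 88047373 to 88053755), had 132, 155 and 203 CPM as lowest, median and highest of the transgenic libraries, against 208, 216, 229, 242 and 214 CPM in controls 1 to 5. The groups did not overlap, and transgenic 5 and 6 came nearest to the controls. The mean of Srsf1 and its SD were 162 ± 30.3 CPM over the 6 transgenic libraries and 222 ± 13.7 CPM over the 5 controls, a log2 fold change of -0.45 (SE 0.11, edgeR adjusted p = 0.0178).

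Srsf3 and Srsf7, close relatives that load the export receptor onto mRNA, had the same log2 fold change as Srsf1 to 2 decimals. Srsf3 had 45.7, 52.5 and 77.8 CPM as lowest, median and highest in transgenic libraries, against 75.2, 73.2, 89.9, 85.2 and 73.5 CPM in controls (log2 fold change -0.45, SE 0.13, adjusted p = 0.0322). Srsf7 had 68.8, 74.0 and 106 CPM in the same order in transgenic libraries, against 106, 103, 114, 129 and 111 CPM in controls (log2 fold change -0.45, SE 0.12, adjusted p = 0.0251). For both genes transgenic 6 alone reached the controls' range.

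Srsf6, which among other targets sets an alternative exon of the tau gene, had 124, 136 and 155 CPM as lowest, median and highest in transgenic libraries, against 163, 155, 179, 182 and 159 CPM in controls. Its groups did not overlap, though the nearest libraries, transgenic 5 and control 2, both round to 155 CPM (log2 fold change -0.28, SE 0.07, edgeR adjusted p = 0.0218). Srsf2, which also helps release paused RNA polymerase, had 89.6, 93.8 and 107 CPM in transgenic libraries, against 98.9, 108, 113, 119 and 109 CPM in controls (log2 fold change -0.19, SE 0.06, adjusted p = 0.0404). Transgenic 5 and 6 lay within the controls' range for Srsf2. Its exons overlap those of Mfsd11 and Mettl23 on the opposite strand, and the unstranded kit does not separate such reads.

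The other classical SR genes, Srsf4, Srsf5 and Srsf9, did not pass the test, with log2 fold changes of 0.07, -0.06 and 0.03. Once the GC trend was removed, 0 classical SR genes were lower and 1 was higher. Srsf2, at 50.0% GC the most GC-rich of the 17 called genes, kept a log2 fold change of -0.22 (adjusted p = 0.0731), and Srsf1, Srsf3, Srsf6 and Srsf7 moved to between -0.20 and -0.07. Srsf5, an insulin-responsive SR protein with a transcript of 40.1% GC, had 214, 234 and 249 CPM in transgenic libraries, against 252, 246, 243, 241 and 238 CPM in controls, so the groups overlapped on the deposited scale. Its log2 fold change turned to 0.27 once the trend was removed (SE 0.06, edgeR adjusted p = 0.0456), and was 0.26 with adjusted p = 0.0556 when a length trend was removed as well.

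Among SR-related genes, 4 of 9 were lower (Srsf10, Srsf11, Srsf12 and Tra2a) and 0 higher, with a median log2 fold change of -0.30. Srsf11 (ENSMUSG00000055436, chromosome 3, 158010473 to 158036639), which works with Srrm4 on neuronal microexons, had the smallest p of the 37. It had 154, 171 and 195 CPM as lowest, median and highest of the transgenic libraries, against 219, 224, 221, 236 and 234 CPM in controls, a clear gap between the groups. It averaged 173 ± 15.9 CPM in transgenic libraries and 227 ± 7.53 CPM in controls (log2 fold change -0.39, SE 0.06, edgeR adjusted p = 0.0103).

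Srsf10 and Srsf12 are related proteins that can repress splicing when dephosphorylated. Srsf10 had 18.5, 23.5 and 32.6 CPM as lowest, median and highest in transgenic libraries, against 31.3, 32.3, 38.1, 41.7 and 37.1 CPM in controls, and only transgenic 6 reached the controls' range. Its log2 fold change of -0.53 was the lowest of all members (SE 0.13, edgeR adjusted p = 0.0191). Srsf12 (ENSMUSG00000054679, chromosome 4, 33208991 to 33233340) had 18.1, 19.6 and 22.2 CPM in transgenic libraries, against 22.6, 25.1, 26.1, 28.1 and 28.5 CPM in controls, with no overlap and a small gap between transgenic 6 and control 1 (log2 fold change -0.40, SE 0.07, adjusted p = 0.0114).

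Tra2a and Tra2b are paralogs that bind purine-rich enhancers, and their fold changes were close while their calls were not. Tra2a had 68.4, 80.8 and 98.2 CPM as lowest, median and highest in transgenic libraries, against 112, 88.1, 102, 120 and 106 CPM in controls (log2 fold change -0.36, SE 0.10, edgeR adjusted p = 0.0259). Tra2b had 12.6, 15.6 and 23.7 CPM in transgenic libraries, against 17.6, 19.7, 24.7, 22.2 and 17.7 CPM in controls, and did not pass the test (log2 fold change -0.30, SE 0.15, adjusted p = 0.181). Both paralogs had transgenic 5 and 6 within the controls' range, and Tra2b was the more scattered. The difference between the paralogs was not tested.

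The Srrm genes stayed outside the calls. Srrm4, the neuronal activator of microexons, had 63.7, 72.7 and 77.6 CPM in transgenic libraries, against 73.0, 84.7, 64.7, 77.9 and 84.5 CPM in controls, with wide overlap (log2 fold change -0.10, SE 0.07, edgeR adjusted p = 0.356). Srrm1, a coactivator that bridges SR proteins, had -0.15 (adjusted p = 0.0600), Srrm2, a scaffold of nuclear speckles, -0.05, and Srrm3, the relative of Srrm4, 0.10. With the GC trend removed, Srsf11 stayed lower at -0.27 (SE 0.04, adjusted p = 0.0314) and Srsf12 at -0.28 (SE 0.06, adjusted p = 0.0354). Srsf10 was then at -0.27 and Tra2a at -0.24, and neither passed the test. Srsf11 and Srsf12 were the only members called lower on that scale, and also with the length trend removed too, at adjusted p = 0.0374 for Srsf11 and 0.0376 for Srsf12, where 0.544% of all tested genes were called lower and 1.16% higher.

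**Figure D2:**
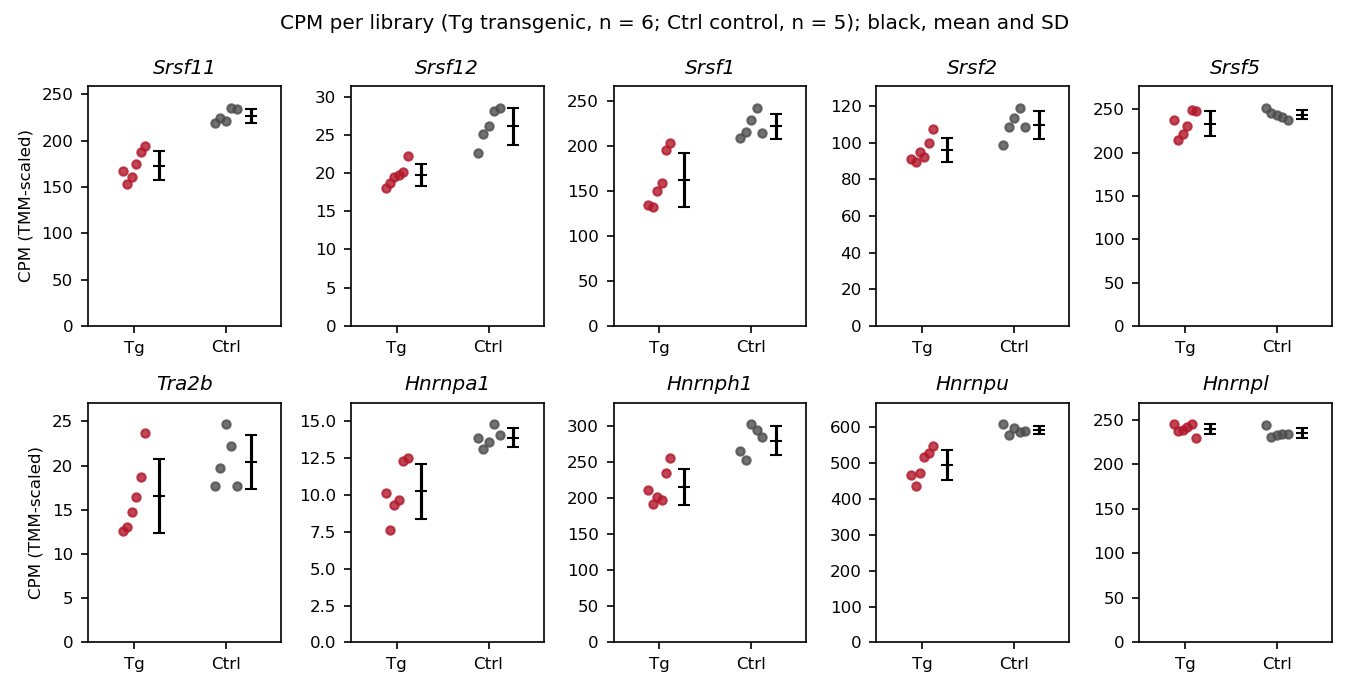
CPM in each library for 10 of the genes, transgenic libraries in red at the left of each panel and controls in grey at the right, in replicate order, with the mean and SD in black (n = 6 and n = 5). Srsf11, Srsf12, Srsf1, Hnrnpa1 and Hnrnpu separate the groups, while Srsf5, Tra2b and Hnrnpl overlap, and transgenic 5 and 6 sit highest among the transgenic points of the called genes.

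Of the hnRNP A/B and D genes, 3 of 7 were lower (Hnrnpa1, Hnrnpa2b1 and Hnrnpd), 0 were higher and the median log2 fold change was -0.18. Hnrnpa1, the best known antagonist of SR proteins (ENSMUSG00000046434, chromosome 15, 103240432 to 103246692), had 7.64, 9.91 and 12.5 CPM as lowest, median and highest of the transgenic libraries, against 13.9, 13.1, 13.6, 14.8 and 14.1 CPM in controls. The groups did not overlap, with transgenic 2 lowest (log2 fold change -0.43, SE 0.11, edgeR adjusted p = 0.0224). Its level is uncertain, since 9 annotated pseudogenes match its transcript closely and how reads shared with them were counted is not known.

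Hnrnpa2b1, which also carries mRNA into dendrites and oligodendrocyte processes, had 385, 430 and 522 CPM as lowest, median and highest in transgenic libraries, against 515, 509, 559, 590 and 536 CPM in controls (log2 fold change -0.30, SE 0.08, edgeR adjusted p = 0.0213). Only transgenic 6 reached the controls' range. Hnrnpd, which binds AU-rich elements and speeds decay, averaged 138 ± 17.3 CPM in transgenic libraries and 164 ± 8.82 CPM in controls (log2 fold change -0.25, SE 0.08, adjusted p = 0.0456). Its relative Hnrnpdl had -0.18, Hnrnpa3 -0.18, Hnrnpa0 -0.08 and Hnrnpab 0.07, and none of these 4 passed the test. After removal of the GC trend, 0 of the 7 were called, Hnrnpa1 was at -0.29 (adjusted p = 0.112), Hnrnpd at 0.00, and Hnrnpa3, with 35 close pseudogenes, was at 0.16 in place of -0.18.

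In the hnRNP F/H family, whose members bind runs of G, 1 of 4 genes was lower. All 4 have a transcript GC content below the median of all tested genes. Of the tested genes below that median 20.5% were called lower, so 1 of 4 is near that share. Hnrnph1 (ENSMUSG00000007850, chromosome 11, 50376990 to 50386528) had 191, 206 and 256 CPM as lowest, median and highest in transgenic libraries, against 265, 252, 302, 294 and 285 CPM in controls. Transgenic 6 alone lay within the controls' range (log2 fold change -0.38, SE 0.08, edgeR adjusted p = 0.0126). Hnrnph2, on the X chromosome, had -0.19, Hnrnph3 -0.14 and Hnrnpf 0.16, with adjusted p of 0.0905, 0.114 and 0.433. Hnrnph1 has the lowest GC content of the 37, at 37.1%, and its log2 fold change became 0.12 with the GC trend removed (SE 0.06, adjusted p = 0.342). The family's median moved with it, to 0.11 with the trend removed against -0.17 on the counts as deposited, so its direction depends on this correction.

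Among the other hnRNP genes, 4 of 9 were lower (Hnrnpll, Hnrnpr, Hnrnpu and Hnrnpc), 0 were higher and the median log2 fold change was -0.24. Hnrnpu binds chromatin-associated RNA and the nuclear scaffold (ENSMUSG00000039630, chromosome 1, 178321108 to 178337797). It had 437, 494 and 547 CPM as lowest, median and highest in transgenic libraries, against 608, 578, 597, 586 and 590 CPM in controls, with no overlap and tightly grouped controls. It averaged 495 ± 42.2 CPM in transgenic libraries and 592 ± 11.3 CPM in controls (log2 fold change -0.26, SE 0.06, edgeR adjusted p = 0.0161).

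Hnrnpll, known as a splicing regulator of lymphocyte activation, had 61.5, 70.2 and 76.8 CPM as lowest, median and highest in transgenic libraries, against 89.0, 81.0, 85.2, 94.4 and 94.3 CPM in controls, and the groups did not overlap (log2 fold change -0.34, SE 0.06, edgeR adjusted p = 0.0114). Hnrnpr, which accompanies mRNA into axons, had 63.4, 69.9 and 79.8 CPM in transgenic libraries, against 84.3, 79.8, 85.7, 87.8 and 86.0 CPM in controls (log2 fold change -0.26, SE 0.06, adjusted p = 0.0153). The groups of Hnrnpr met at 79.8 CPM, in transgenic 6 and control 2. Hnrnpc, which binds uridine tracts, averaged 121 ± 9.28 CPM in transgenic libraries and 143 ± 15.7 CPM in controls (log2 fold change -0.24, SE 0.07, adjusted p = 0.0416).

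Hnrnpk, a KH-domain protein that binds C-rich RNA, just missed the threshold. It had 114, 136 and 167 CPM as lowest, median and highest in transgenic libraries, against 156, 169, 169, 173 and 156 CPM in controls, with transgenic 6 inside the controls' range (log2 fold change -0.27, SE 0.09, edgeR adjusted p = 0.0528). Hnrnpm, Hnrnpul2, Hnrnpl and Hnrnpul1 did not pass the test either, with log2 fold changes between -0.08 and 0.05. Removal of the GC trend left 0 of these 9 genes called and a median of -0.05. Hnrnpu then stood at 0.04, Hnrnpr at 0.03, Hnrnpll at -0.03 and Hnrnpk at -0.07.

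The authors' deposited tables of changed genes list 20 of the 37 members, all of them lower in transgenic mice and none higher. These tables rest on the same 11 libraries, so they are no independent support, and their share over all genes is not given here. They hold all 17 genes called here and add Hnrnpk, Hnrnpdl and Srrm1, for which the authors' deposited table gives adjusted p of 0.0224, 0.0450 and 0.0417. The smallest adjusted p for a member in the authors' deposited table is 2.06e-06, for Srsf11. No source used here names the tool the authors ran.

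Fold changes of the members followed the GC content of their transcripts. The median GC content of the longest transcript was 44.1% for the 37 members and 49.6% for all tested genes. Of the 28 members below 49.6%, 16 were called lower, and of the 9 at or above it 1 was, Srsf2. Over all tested genes 20.5% of those below this value and 0.464% of those at or above it were called lower. Across the 37 members the Spearman rho between fold change and GC content was 0.671, across all tested genes it was 0.684, and across the members it became -0.343 once the trend was removed; genes share libraries and are not independent, so these values are descriptions. Of the 17 called genes, 13 kept a negative fold change with the trend removed, and Hnrnph1, Hnrnpr, Hnrnpu and Hnrnpd did not.

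**Figure D3:**
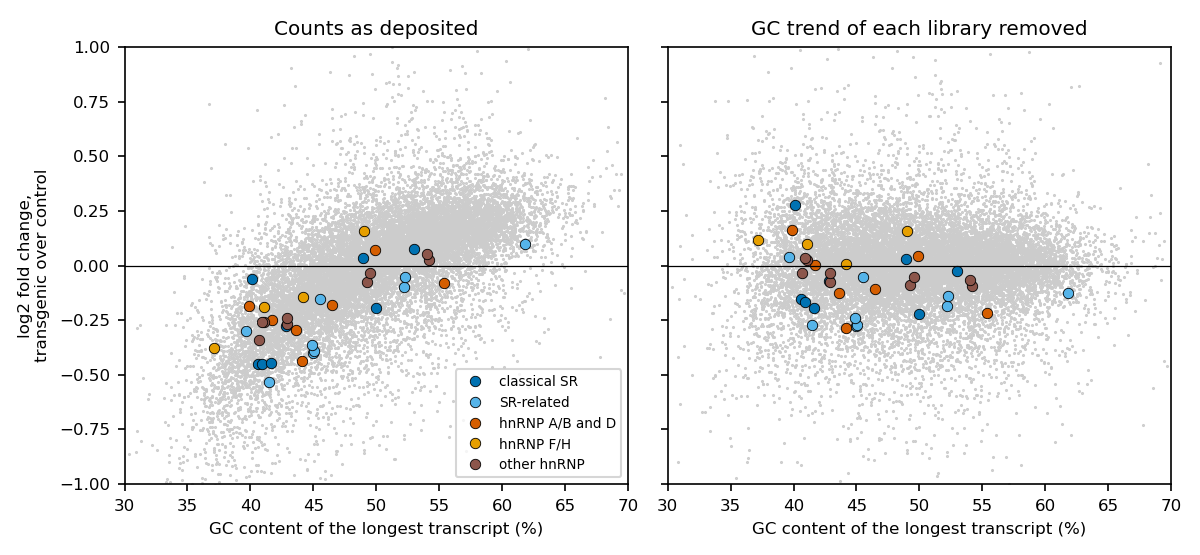
Log2 fold change, transgenic over control, against the GC content of the longest transcript (percent) for all tested genes in grey and the 37 members in colour by family, with the counts as deposited at the left and each library's GC trend removed at the right. Genes beyond the axes are not drawn. At the left most members lie at the AT-rich end, inside the sloping cloud, with a median of -0.19; at the right the cloud is level and the members' median is -0.07.

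The fall was uneven among the transgenic libraries. Against each gene's mean over the 11 libraries, all 17 called genes were low in transgenic 1, 2, 3 and 4, while 9 were low in transgenic 5 and 3 in transgenic 6. In controls 1 to 5, 1, 2, 0, 0 and 0 of the 17 were low. The 17 were picked as lower in these same libraries, so part of this contrast is set by the choice. Of all 37 members, 27, 32, 30, 29, 16 and 12 were low in transgenic 1 to 6 and 10, 9, 9, 4 and 11 in controls 1 to 5. In all 17 genes the 2 highest transgenic libraries were transgenic 5 and transgenic 6. The libraries' GC trends came in a similar but not the same order. Transgenic 1 had the steepest trend of its group, but transgenic 2 had the most low members of the 37. Among controls, control 2 had the highest trend, but control 5 had the most low members. Log2 expression changed per 10 points of GC content by 0.27, 0.26, 0.18, 0.10, 0.02 and -0.06 in transgenic 1 to 6. In controls 1 to 5 it changed by -0.12, -0.06, -0.20, -0.22 and -0.16. Every transgenic value lay above every control value, with transgenic 6 at -0.0607 and control 2 at -0.0617 nearest to each other. Mitochondrially encoded genes took 3.00% to 4.15% of the counts in transgenic libraries and 3.86% to 5.03% in controls. The part of RNA quality or library preparation in this order was not tested.

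**Figure D4:**
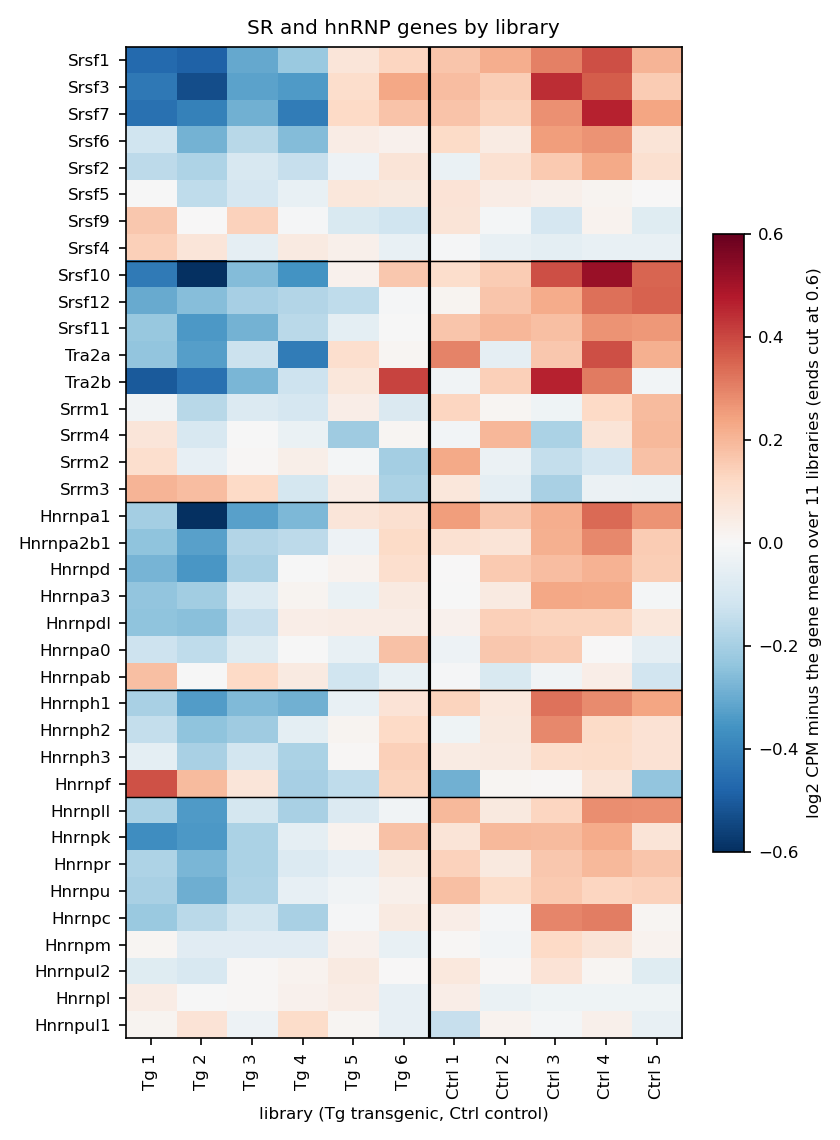
Log2 CPM of each of the 37 genes (rows, grouped by family) in each library (columns, transgenic 1 to 6 and then control 1 to 5), minus the gene's mean over the 11 libraries, with blue below and red above the mean. Transgenic 1 to 4 are blue for all 17 called genes, transgenic 6 is below the mean for 3 of them, and Srsf9, Srrm3, Hnrnpab and Hnrnpl show no such block.

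Leaving out 1 library at a time kept 6 called genes past the threshold in all 11 fits, namely Srsf11, Srsf12, Hnrnph1, Hnrnpll, Hnrnpr and Hnrnpu. Without control 4 these 6 were the only members called. Srsf1 and Srsf10 lost their calls in that fit alone, at log2 fold changes of -0.42 and -0.47. The number called lower was also reduced by more than 1.5 times without transgenic 1, 2, 3 or 4 (11, 10, 9 and 11 members) and without control 3 or 5 (9 and 10 members). Without transgenic 6 it was 23. The number of all tested genes called lower moved the same way: against 10.5% in the full set it was 4.58% without control 4, between 5.17% and 7.03% without transgenic 1, 2, 3 or 4, 5.76% and 5.07% without control 3 or 5, and 15.1% without transgenic 6. Srsf2, Srsf3, Tra2a and Hnrnpc kept their call in 3 fits of 11 and Hnrnpd in 2, and Srsf7 kept it in 4.

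Xist, the RNA that coats the inactive X chromosome and is high in female cells, split the libraries within both groups. Its level was 9.21 to 10.1 log2 CPM in transgenic 1, 2 and 3 and controls 1, 3 and 4, and -1.31 to 0.64 log2 CPM in transgenic 4, 5 and 6 and controls 2 and 5. The labels give no sex per library, so these are classes drawn from the data. The members' median difference in mean log2 CPM, transgenic minus control, was -0.33 among the 6 libraries with high Xist. Among the 5 with low Xist it was -0.11. The difference was negative for 28 of the 37 members in the first class and for 29 in the second. All 17 called genes, picked as lower over the 11 libraries together, were negative in both. Srsf12, Srsf11 and Hnrnpll differed by -0.44, -0.49 and -0.41 in the first class and by -0.37, -0.31 and -0.27 in the second. Srsf1, Srsf3 and Srsf7 differed by -0.71, -0.76 and -0.68 in the first and by -0.22, -0.15 and -0.23 in the second.

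The interaction of genotype with Xist class, added after seeing the data, called 0 of the 37 members and 0 of 17293 genes by edgeR (smallest adjusted p of a member 0.212). At an unadjusted p under 0.05 it picked out 18 members, where the share of all tested genes was 16.4%. After GC correction it picked out 5 members, where the share of all genes was 4.30%. Within the transgenic group the 3 libraries with the steepest GC trends are those with high Xist, so the effects of these properties cannot be told apart on the counts as deposited. A fit with Xist expression as covariate called 19 members lower and 0 higher, where 13.0% of all tested genes were called lower and 9.58% higher.

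Levels differed widely among the 37 genes. Per kilobase of exon, Srrm2 was the most abundant member, at 84.4 CPM per kb in transgenic libraries and 87.4 ± 10.3 CPM per kb in controls. Hnrnpa2b1 followed at 67.0 CPM per kb in transgenic libraries and 82.3 ± 5.08 CPM per kb in controls, and the controls' means of the 2 genes differ by less than the SD of Srrm2. Srsf5, at 58.5 CPM per kb in transgenic libraries and 61.1 CPM per kb in controls, led the classical SR genes in both groups. At the low end, per kilobase in transgenic and then control libraries, Hnrnpf had 0.724 and 0.644 CPM, Tra2b 1.79 and 2.21 CPM, and Hnrnpr 3.18 and 3.82 CPM. The rank of Hnrnpr depends on its total annotated exon length of 22199 bases, the longest of the 37. Before division by length it averaged 70.7 CPM in transgenic libraries and 84.7 CPM in controls.

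**Figure D5:**
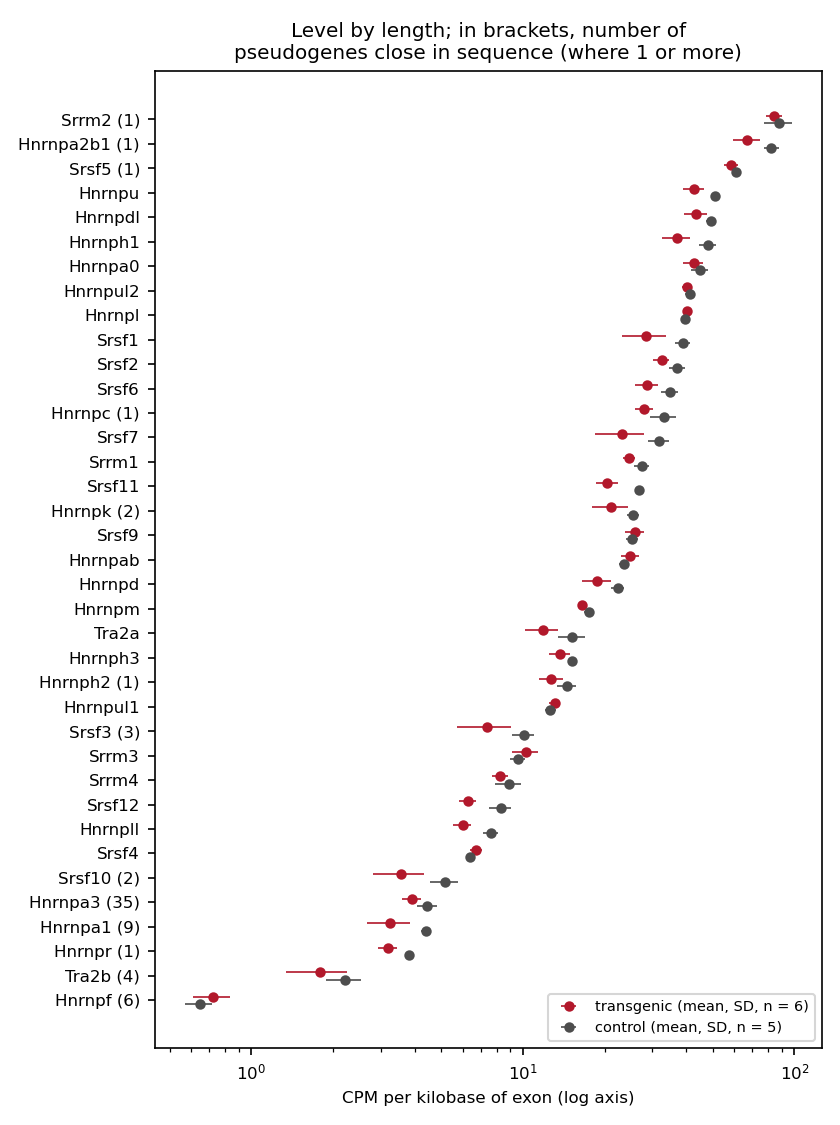
Mean CPM per kilobase of exon of each of the 37 genes on a log axis, transgenic libraries in red above controls in grey, with the SD as a bar (n = 6 and n = 5) and the number of close pseudogenes in brackets. Members run between 0.644 CPM per kb in controls for Hnrnpf and 87.4 for Srrm2, and several genes at the low end have close pseudogenes.

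Low levels are uncertain for several members. A close pseudogene, matched over at least 200 bases at 95% identity or more, was found for 13 of the 37, with 35 for Hnrnpa3, 9 for Hnrnpa1, 6 for Hnrnpf and 4 for Tra2b. Reads of such genes may be dropped or shared in counting. Exons of 16 members overlap those of another gene, a protein-coding one for 8 of them, and without strand such reads cannot be told apart. The overlap of Hnrnpm with March2 is on the same strand and covers 1169 bases of exon.

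The annotation records transcripts sent to nonsense-mediated decay for 25 of the 37 members, 67.6%, against 27.2% of the 14654 tested protein-coding genes, and transcripts with a retained intron for 28 members, 75.7%, against 56.2%. All 8 classical SR genes have an annotated decay transcript. Counts per gene add productive and poison transcripts together, so the split between them was not measured. Promoters of 35 members matched the RefSeq promoter table, and their ratio of observed to chance CpG content had a median of 0.970, against 0.389 over all 27025 promoters in the table.

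Genes related to SR and hnRNP proteins were examined as 5 further lists, 57 genes in all. Of these 20 were lower (35.1%) and 5 higher (8.77%), where 10.5% of all tested genes were lower and 7.41% higher. The list of further RS-domain proteins held 11 of the 20. Over the tested genes below the median GC content 20.5% were lower, against 0.464% of those at or above it, and the lists hold genes of both kinds. Some of the lists hold so few genes that 1 call moves their share past these values. Of 9 kinases that phosphorylate SR proteins, 3 were lower and 0 higher. Prpf4b, a kinase of the spliceosome, averaged 92.4 ± 4.95 CPM in transgenic libraries and 116 ± 7.40 CPM in controls (log2 fold change -0.33, edgeR adjusted p = 0.0103), Clk4, a nuclear SR protein kinase, had -0.29 and Srpk2, a mainly cytoplasmic one, -0.21. Of 7 genes for import and arginine methylation, 1 was lower and 1 higher, near the shares over all tested genes. Tnpo1, the importin of several hnRNP proteins, averaged 57.8 ± 13.9 CPM in transgenic libraries and 87.8 ± 7.24 CPM in controls (log2 fold change -0.60, adjusted p = 0.0150), while the methyltransferase Prmt1 was higher by 0.20 on the log2 scale and Prmt5 had 0.12 and did not pass the test.

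Of 14 nonsense-mediated decay factors, 3 were lower (21.4%) and 2 higher (14.3%), where 10.5% of all tested genes were lower and 7.41% higher. The 3 lower genes, Smg1, Upf3b and Upf2, lay below the median GC content, where 20.5% of all tested genes were lower. The 2 higher ones, Smg9 and Smg5, lay above it. Smg1, the kinase of the pathway, had a log2 fold change of -0.41 (edgeR adjusted p = 0.0125), Smg9, a partner of Smg1, 0.22, and Upf3b, which links decay to the exon junction complex, -0.22. Of 9 hnRNP proteins carried under other gene names, 2 were lower and 1 higher: Syncrip, related to Hnrnpr, averaged 45.8 ± 15.5 CPM in transgenic libraries and 76.6 ± 6.94 CPM in controls (log2 fold change -0.74, adjusted p = 0.0186), Tardbp had -0.34 and Raly 0.23. Tardbp is a splicing repressor linked to motor neuron disease, and Raly is a relative of Hnrnpc.

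The 18 further RS-domain proteins had 11 members lower (61.1%) and 1 higher (5.56%), with a median log2 fold change of -0.21. Over all tested genes 10.5% were lower and 7.41% higher. All 11 lower genes lay below the median GC content, where 20.5% of all tested genes were lower. The 1 higher gene, U2af2, lay above it. Pnisr, an arginine- and serine-rich nuclear protein, averaged 292 ± 18.0 CPM in transgenic libraries and 374 ± 21.1 CPM in controls (log2 fold change -0.36, edgeR adjusted p = 0.0103). Rbm25, a splicing factor tied to the U1 particle, had -0.47 and Luc7l2, another U1-associated protein, -0.66. With the GC trend removed, 3 of the 57 genes were lower and 0 higher, where 0.821% of all tested genes were lower, namely Pnisr at -0.20, Luc7l2 at -0.43 and the nuclear speckle scaffold Son at -0.22, all in the RS-domain list. Rbm25, at 37.5% GC, then stood at 0.00.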

How the data were processed

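Raw counts per gene, deposited by the authors, were used for 11 libraries (6 transgenic, 5 control), on mouse build mm10. The submitters' processing notes list STAR 2.5.2b, Subread 1.5.1, featureCounts and FastQC 0.11.5. Per the labels' protocols, libraries were made with an unstranded TruSeq kit for single-end reads. No source used here gives the counting settings. The authors' deposited tables of changed genes hold a log2 fold change and an adjusted p-value. Their per-library values, a signal the authors deposited with each count divided by a size factor, were not used. Totals ran between 14263784 and 36898689 counts, and member genes totalled 665 to 343968 counts over all libraries. Symbols, positions and biotypes came from GENCODE (48349 of 48709 identifiers), and GC content was that of the longest transcript.

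Counts were tested with edgeR 4.0.16 in R 4.3.3 (filterByExpr, 17293 genes with 99.9% of counts, TMM, quasi-likelihood F test, Benjamini-Hochberg 0.05, no covariate). CPM values are TMM-scaled, and log2 CPM used a prior count of 2. The GC trend was a lowess curve (span 0.3) per library, entered as an offset. DESeq2 1.42.0, limma 3.58.1, other scalings and filters, the replicate block, Xist and leaving out each library were alternatives, and the procedure was tested on simulated data. Pseudogenes were searched with blastn 2.17.0. No 2 libraries of the same group were duplicates (chi-square over its degrees of freedom 6.24 to 49.0 for pairs of 1 group). Pairs across the groups were not checked, and the check does not tell whether 2 libraries share an animal.

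Any member could be named. Per-library values were given for the 12 called members with the smallest p, for called members that rose, and for Srsf1, Srsf2, Srsf3, Tra2a, Tra2b, Srrm4, Hnrnpa1, Hnrnpk and Hnrnpu. Values of Srsf5 were added after they were seen. Each related list gave its 3 genes with the smallest p, and Son was added because it passed with the GC trend removed. The members, lists and tests were chosen with earlier results of these data known, so the counts are no independent support for a pattern.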

Additional observations from a re-analysis of the deposited data

Results flagged for a closer look

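In each gene's libraries of a group, 1 library was looked for that stood apart from the rest, over 74 groups, and 2 were found; chance alone flags about 1 group in 20. Hnrnpl, which binds CA repeats, had 244 CPM in control 1 and 231 to 233 CPM in the other 4 controls. Srsf4 had 23.3 CPM in control 1 and 22.5 to 22.7 CPM in the other controls. Neither gene was called, and both values are within the range of the transgenic libraries.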

How the results depend on the processing

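Replicate numbers did not pair the libraries: deviations of same-numbered libraries correlated at 0.20, -0.03, -0.19, -0.05 and 0.02. In 1 of 5 pairs, that of replicate 1, the same-numbered control was the control that correlated best with the transgenic library. With the number as a replicate block, which leaves out transgenic 6, 24 members were lower, 0 higher, and the median log2 fold change was -0.23. The count of members lower was 14 without a filter, 17 with a filter on CPM or with DESeq2's size factors, 19 with DESeq2 or Xist as a covariate and 22 with limma. It was 6 to 23 over the 11 fits that each leave out 1 library, with 0 members higher in all of these. The share of all tested genes called lower also changed: 4.39% without a filter, 10.4% and 12.2% with the size factors and the CPM filter, 13.9% with DESeq2, 13.0% with Xist, 15.1% with limma, 2559 of 17068 genes with the block, and 4.58% to 15.1% over the fits that leave out 1 library. With the GC trend removed 2 members were lower and 1 higher, with a median of -0.071. With a length trend removed too, 2 were lower and 0 higher, with a median of -0.066. Of the related genes, 3 were lower and 0 higher with the GC trend removed.

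Signs turned in 13 members with the GC trend removed: Hnrnpu 0.036, Hnrnpa3 0.16, Hnrnph2 0.099, Srsf4 -0.026, Hnrnpr 0.027, Hnrnpd 0.0023, Srrm3 -0.13, Hnrnpul1 -0.064, Hnrnpl -0.093, Hnrnph3 0.0073, Hnrnph1 0.12, Srsf5 0.27 and Tra2b 0.037. They turned in 14 with the length trend removed too: Hnrnpu 0.087, Hnrnpa3 0.16, Hnrnph2 0.092, Srsf4 -0.040, Hnrnpr 0.14, Hnrnpd 0.019, Srsf9 -0.0098, Srrm3 -0.12, Hnrnpul1 -0.037, Hnrnpl -0.089, Hnrnph1 0.12, Srsf5 0.26, Tra2b 0.067 and Hnrnpll 0.019. The cause was not tested. Srrm2 ran between -0.091 and 0.0036 over the fits that leave out 1 library. No other sign turned under any setting tried. The lowest depth, in control 5, and the 25 counts of Hnrnpf in 1 library limit the precision of the rarest members.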
